A study of Schmidtea mediterranea with 96 samples.

Results

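A set of 138 transcripts of the planarian *Schmidtea mediterranea* was lower in whole worms 24 hours after irradiation and fell below a limit of enrichment in X1, the sorted stem cell fraction. Below that limit most of them still had their highest mean in X1, as described further on. They were chosen from 36035 transcripts by measured values. L(a, b) denotes the log2 ratio of (mean FPKM + 1) in group a to that in group b, where FPKM is reads per kilobase of transcript per M (mega) reads of the library. A member had a mean of at least 2 FPKM in untreated whole worms, an L(irradiated, untreated) of at most -0.8, an L(X1, Xins) below 1, and an absolute L against 0 hr below 1 at all 16 later times of a regeneration series. Of 16124 transcripts with an untreated mean of at least 2 FPKM, 495 were lowered after irradiation. Of these, 306 reached the X1 limit, and 189 were below it. In this second group 51 moved past the limit during regeneration, which left the 138 members. The same rule with an L(X1, Xins) of at least 1 gave 171 transcripts, which serve below as the X1-enriched irradiation-lowered set.

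Planarians replace their tissues from neoblasts, the only dividing somatic cells of the adult. Neoblasts die soon after a lethal dose of radiation, and their postmitotic progeny are then lost as they mature without being replaced. Sorting on a DNA dye gives X1, cells with more than the resting DNA content and almost all neoblasts; X2, a mix of neoblasts and young progeny; and Xins, cells that persist after irradiation and are mostly differentiated. PIWI-1 is a protein of neoblasts that outlasts its own RNA, so that progeny still carry a lower amount of it for some time after they leave the cell cycle.

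All libraries were made from polyA RNA of wild-type animals starved for at least 7 days. The animals were of the asexual strain CIW4 or the sexual strain S2F8, and the labels do not say which strain a library came from. Irradiated worms (labelled 10k24h) had received 10000 rads 24 hours before collection and stand against untreated worms (WT), with 3 libraries of 5 worms each per group. X1, X2 and Xins had 3 libraries each of 100000 cells. Cells with high, low and no PIWI-1 (PIWI-1 high, low and negative) were sorted after fixation, with 4 libraries each that carry sort numbers 1 to 4. The regeneration series followed fragments taken from a side of the worm over 17 times from 0 hr to 14 days, with 4 libraries per time. The labels do not say whether libraries of one group came from separate cultures, so each p-value measures the spread between these libraries.

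The whole-worm and X libraries held 33.8 to 40.1 M reads, the PIWI-1 libraries 24.2 to 44.3 M and the regeneration libraries 9.54 to 20.2 M, as recovered from the steps of the FPKM values. The most abundant transcript took 39.3% ± 2.04 of the reads in X1, 33.7% ± 0.923 in X2 and 27.6% ± 1.23 in Xins, against 12.3% ± 0.189 in irradiated and 12.1% ± 0.643 in untreated worms (SD, n = 3 each). In the PIWI-1 libraries the share of the most abundant transcript ranged from 16.6% to 61.2%. The second PIWI-1 sort detected more transcripts at 1 FPKM or more than the other sorts did: 14747 in PIWI-1 high, 16804 in PIWI-1 low and 19473 in PIWI-1 negative. Members had at least 30 reads in each untreated library, with a median of 621 over members for the untreated library with the fewest. The identifiers were not paired with gene names, so no member is given a name or function here, the populations were not checked against marker genes, and how far near-identical transcripts share reads was not assessed.

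The irradiation threshold passed through a crowded range. The member nearest to it had an L(irradiated, untreated) of -0.8014 and the nearest transcript outside had -0.7981, and 46 members lay within 0.1 inside it against 67 transcripts within 0.1 outside. At the X1 limit the nearest values were 0.9999 inside and 1.0051 outside, with 16 members and 15 other transcripts within 0.1 of it. The lowest untreated mean was 2.0598 FPKM inside and the highest 1.9827 outside, and the largest absolute L in the regeneration series was 0.9919 inside and 1.0045 outside. Without the first irradiated library the rule returned 236 transcripts instead of 138. An L(irradiated, untreated) of at most -1 was met by 65 members, at most -1.5 by 18, at most -2 by 6 and at most -3 by 1.

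The members' median L(irradiated, untreated) was -0.99, against -1.09 in the X1-enriched set and -0.02 over all 16124 transcripts. These values chose the members and are given as a description. All 3 irradiated libraries lay below all 3 untreated libraries for 136 of the 138 members, which the rule largely fixes, and for 29.5% of all 16124 transcripts. In whole animals, fewer cells of a type and less RNA per cell cannot be told apart.

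The member with the lowest ratio was SMED30008505, at 0.720, 0.882 and 1.05 FPKM in irradiated worms, against 26.9, 24.4 and 23.8 FPKM in untreated worms. Its 3 irradiated libraries were all near 1 FPKM and far from the untreated libraries, and its L(irradiated, untreated) was -3.79. In the X sort it reached 22.5, 32.3 and 36.1 FPKM in X1, 200, 196 and 232 FPKM in X2, and 83.4, 184 and 185 FPKM in Xins. X2 was thus the highest population and X1 the lowest, with no overlap between X1 and either of the other 2 populations.

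Next came SMED30025741, with 96.2, 98.7 and 113 FPKM in irradiated worms, against 680, 550 and 583 FPKM in untreated worms and an L(irradiated, untreated) of -2.55. Its irradiated libraries lay far below the untreated ones but kept a higher level than those of SMED30008505. The 2 members with the highest level in untreated worms behaved alike. SMED30002134 averaged 208 ± 15.4 FPKM in irradiated and 1166 ± 68.5 FPKM in untreated worms (SD, n = 3 each). SMED30014876 averaged 197 ± 21.1 FPKM in irradiated and 1152 ± 60.8 FPKM in untreated worms (SD, n = 3 each).

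**Figure D1:**
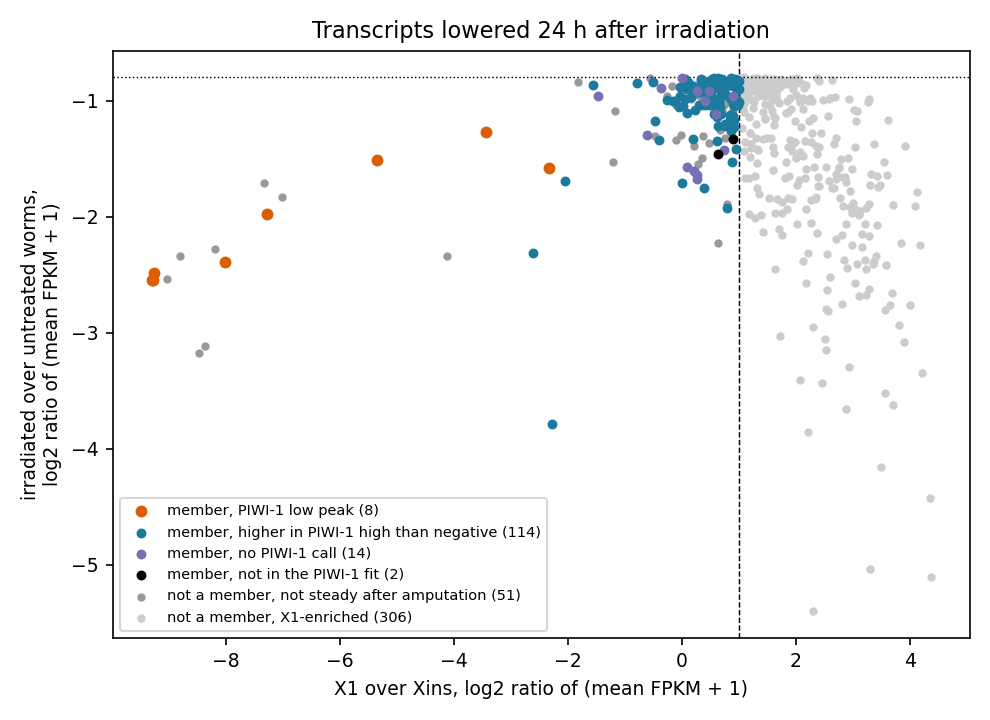
The 495 transcripts lowered 24 hours after irradiation, with L(X1, Xins) on the horizontal axis and L(irradiated, untreated) on the vertical axis, both log2 ratios of (mean FPKM + 1). Members lie left of the dashed line at 1, most of them between 0 and 1; 8 members that peaked in PIWI-1 low cells lie from -9.30 to -2.34. Dark grey points left of the line are the 51 transcripts left out for their course in regeneration, and light grey points are the 306 X1-enriched transcripts.

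Most members were not depleted from X1. The median L(X1, Xins) of the members was 0.51, against 1.70 in the X1-enriched set and -0.64 over all 16124 transcripts, again as a description of values the rule used. X1 had the highest mean for 102 members, X2 for 21 and Xins for 15. An L(X1, Xins) from 0 to 1 was found for 111 members, 71 of them at 0.5 or above, while 14 lay between -1 and 0 and 13 below -1. Members as a whole therefore sat at a middle position between the X1-enriched set and the bulk of transcripts. The first Xins library was the lowest of 3 for 117 of the 138 members, against 44.4% of all transcripts, and its median over members was 2.82 on the log2(FPKM + 1) scale, beside 3.55 and 3.63 in the other two.

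The X1 limit depends on how libraries are scaled. FPKM are relative to all reads of a library, of which the most abundant transcript took a larger share in X1 than in Xins. The part of that share in the shift given next was not tested. When libraries were scaled by median ratios instead, L(X1, Xins) shifted by 0.74 in the median over all transcripts and the members' median became 1.33. With this scaling 106 of the 138 members had an L(X1, Xins) of 1 or more. The shift of L(irradiated, untreated) was 0.10, after which the members' median was -0.80 and 69 members were still at -0.8 or below. With this scaling in every condition the rule returned 14 transcripts, 13 of them members.

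The 2 members with the largest excess in X2 over both other populations were SMED30007927 and SMED30012332. SMED30007927 had 44.99, 48.2 and 53.5 FPKM in X1, 150, 146 and 151 FPKM in X2 and 62.1, 84.6 and 79.7 FPKM in Xins. All 3 X2 libraries were above every X1 and Xins library. SMED30012332 had 8.92, 9.66 and 9.29 FPKM in X1, 84.4, 107 and 120 FPKM in X2 and 34.3, 74.1 and 76.7 FPKM in Xins, with the same order and no overlap. Its level was 4.22 ± 0.432 FPKM in irradiated and 24.9 ± 1.93 FPKM in untreated worms (SD, n = 3 each).

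At the other end were the members with the lowest L(X1, Xins). Their X1 means, 26.9 FPKM for SMED30014876 and 12.1 FPKM for SMED30025741, were above the members' median of 10.8 FPKM in X1. SMED30014876 had 39.5, 16.6 and 24.6 FPKM in X1, 8809, 7827 and 11547 FPKM in X2 and 14291, 19252 and 19046 FPKM in Xins. Its L(X1, Xins) was -9.30, the lowest of all members. SMED30025741 had 17.2, 8.47 and 10.5 FPKM in X1, 4028, 3565 and 5190 FPKM in X2 and 6349, 9010 and 9058 FPKM in Xins, an L(X1, Xins) of -9.28. For both, Xins was above X2 and X2 above X1 in all libraries. In whole worms their L(irradiated, untreated) was -2.54 for SMED30014876 and -2.55 for SMED30025741.

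**Figure D2:**
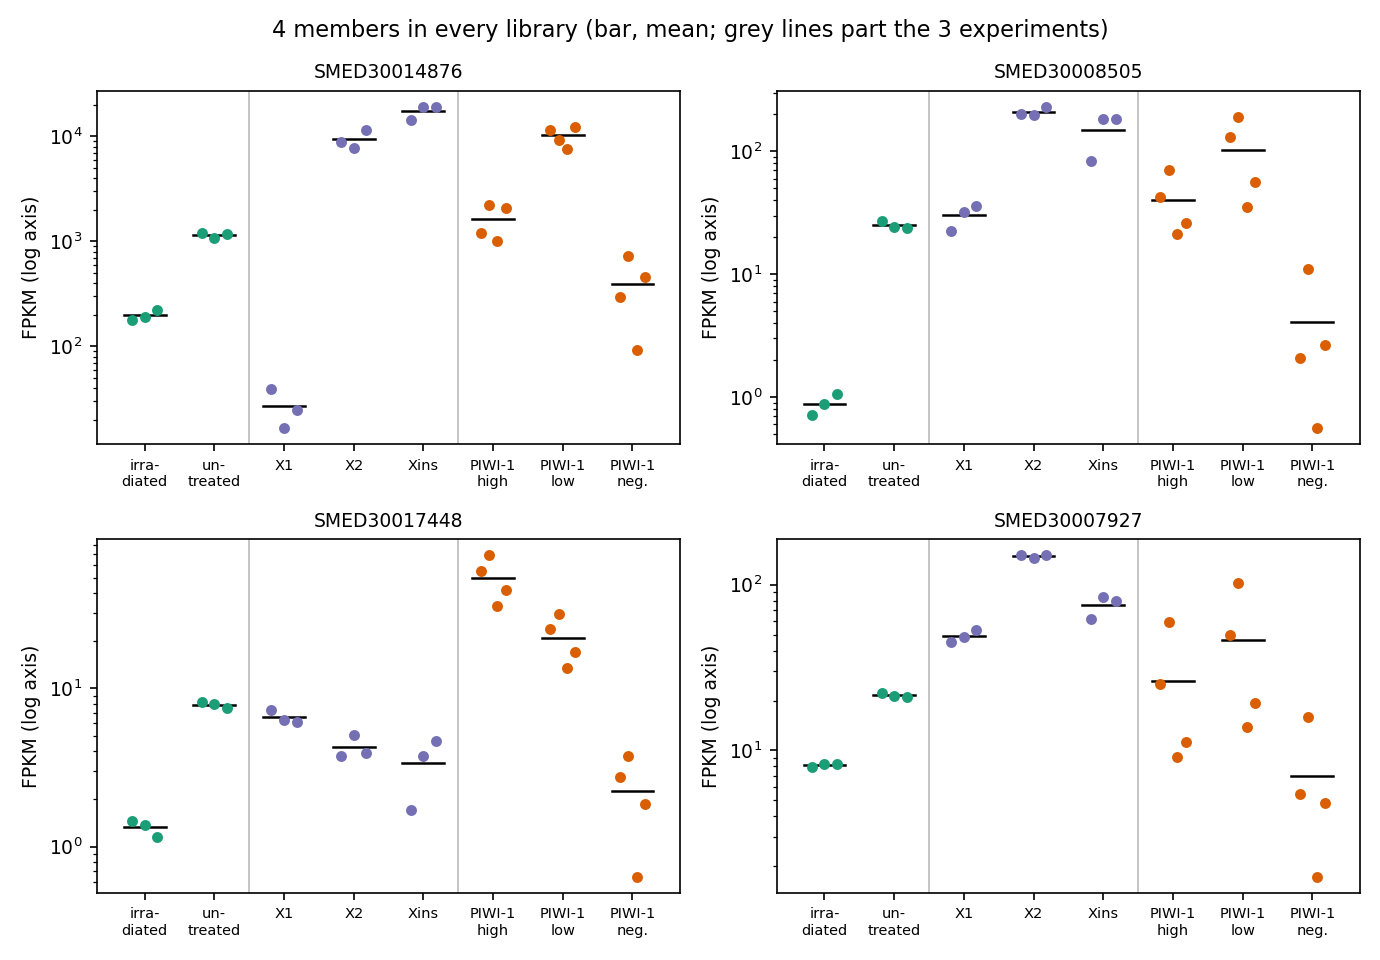
FPKM on a log axis of 4 members in every library of irradiated and untreated worms, X1, X2 and Xins cells, and PIWI-1 high, low and negative cells; each point is a library and each bar a group mean. SMED30014876 has its highest values in Xins and PIWI-1 low cells, SMED30008505 in X2 and PIWI-1 low cells, SMED30017448 in PIWI-1 high cells, and SMED30007927 in X2 cells.

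The PIWI-1 sort had no part in choosing the members and served as the test. Differences were tested with limma on log2(FPKM + 1) over all 15896 transcripts with at least 1 FPKM in 4 of the 12 libraries, two-sided, with Benjamini-Hochberg adjustment over all of them. To be called, a transcript had to differ by at least 1 on this log2 scale, at an adjusted p under 0.05. Of the members, 136 passed the filter on low values, 93 of them with 1 FPKM or more in all 12 libraries. Another 9 reached 1 FPKM in fewer than 4 of the 8 PIWI-1 low and negative libraries, and 1 in none of these 8. These 9 passed the filter only with the help of PIWI-1 high libraries. A call of them as lower in PIWI-1 high was thus nearly excluded in advance. SMED30018240 and SMED30004496 were not tested.

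Members were higher in PIWI-1 high than in PIWI-1 negative cells. Of the 136 tested, 122 were called higher, where 19.7% of all tested transcripts were, and 0 lower, where 27.6% were; no member was lower at an unadjusted p under 0.05 either, nor with voom. Their median log2 difference was 2.37, against -0.17 over all tested transcripts, and their range was 0.55 to 4.02. The 9 members that passed the filter only with the help of PIWI-1 high libraries are among the 136. The counts were not made without them. All 4 PIWI-1 high libraries lay above all 4 PIWI-1 negative libraries for 117 members and for 18.8% of all tested transcripts. In the X1-enriched set 167 of 171 were called higher, with a median of 2.98. The difference between the 2 sets was not tested.

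**Figure D3:**
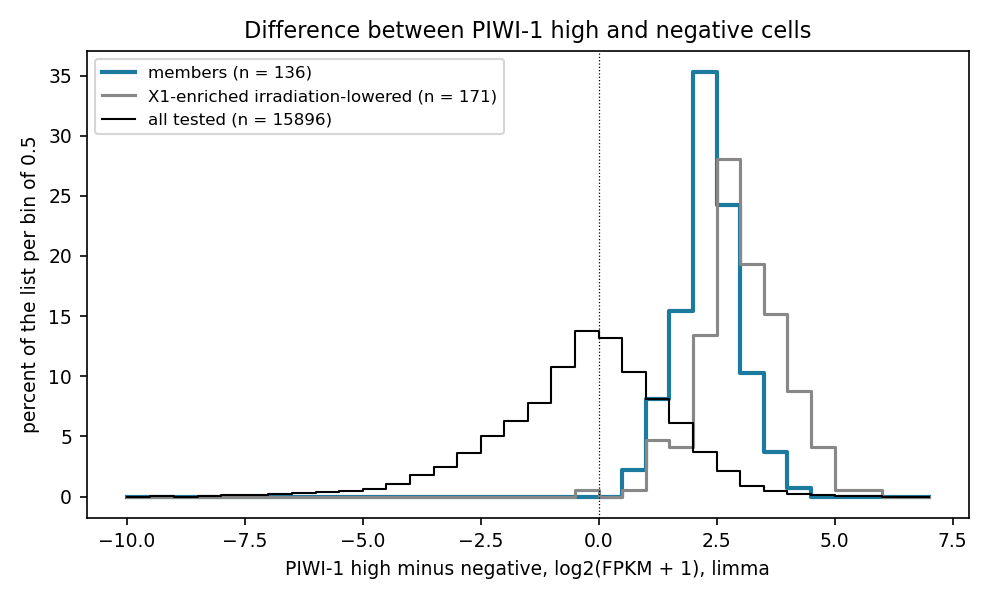
Distribution of the log2 difference between PIWI-1 high and negative cells, as percent of each list per bin of 0.5, for 136 members, 171 X1-enriched irradiation-lowered transcripts and all 15896 tested transcripts. All members lie above 0, with a median of 2.37, while the median of all tested transcripts is -0.17.

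The 2 members with the largest difference were SMED30017448 and SMED30020974. SMED30017448 had 54.7, 69.4, 32.9 and 42.0 FPKM in PIWI-1 high, 23.7, 29.5, 13.4 and 17.1 FPKM in PIWI-1 low and 2.74, 3.73, 0.646 and 1.86 FPKM in PIWI-1 negative cells. The 3 populations did not overlap. Its log2 difference between PIWI-1 high and negative was 4.02 ± 0.41 (SE; limma adjusted p = 1.74e-06). Between PIWI-1 high and low it was 1.22 ± 0.41 (SE; limma adjusted p = 0.0753), which was called with the sort number as a block (limma adjusted p = 8.07e-05). In whole worms the same transcript averaged 1.33 ± 0.155 FPKM after irradiation and 7.88 ± 0.349 FPKM untreated (SD, n = 3 each), while X1 reached 6.58 ± 0.639 FPKM, X2 4.25 ± 0.715 FPKM and Xins 3.38 ± 1.52 FPKM (SD, n = 3 each). Levels from different experiments stand side by side here and were not tested against each other.

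SMED30020974 had 24.4, 27.7, 16.1 and 19.4 FPKM in PIWI-1 high, 5.44, 8.36, 4.70 and 4.74 FPKM in PIWI-1 low and 0.574, 1.82, 0.184 and 0.241 FPKM in PIWI-1 negative cells. Each population was apart from the next in all libraries. The log2 difference between PIWI-1 high and negative was 3.82 ± 0.37 (SE; limma adjusted p = 1.28e-06). In the X sort SMED30020974 was low throughout, at 1.78 ± 0.678 FPKM in X1, 0.258 ± 0.0685 FPKM in X2 and 0.527 ± 0.0605 FPKM in Xins (SD, n = 3 each). Its L(X1, Xins) of 0.86 on the log2(FPKM + 1) scale understates that ratio, since Xins lay below 1 FPKM.

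Members were also higher in PIWI-1 low than in PIWI-1 negative cells, with a smaller median difference. Of the 136, 103 were called higher, where 13.8% of all tested transcripts were, and 0 lower, where 18.9% were; 0 were lower at an unadjusted p under 0.05, and 0 with voom. The median log2 difference was 1.62, against -0.06 over all tested transcripts. A difference above 0 was found for 134 members and for 7620 of all 15896 tested transcripts. In the X1-enriched set 143 of 171 were called higher, with a median of 1.82. The order of the means was PIWI-1 high, low, negative for 120 members. PIWI-1 low had the highest mean for 16 members and PIWI-1 negative for 0 of the 136. These orders were not counted over all tested transcripts.

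Between PIWI-1 high and low cells most members had no call. A log2 difference above 0, higher in PIWI-1 high, was found for 121 of the 136 and for 7460 of all 15896 tested transcripts. Of the members, 118 were not called in either direction. Of the 136, 10 were called higher in PIWI-1 high, where 2.39% of all tested transcripts were, and 8 lower, where 7.2% were. The median log2 difference was 0.67, against -0.04 over all tested transcripts and 1.22 in the X1-enriched set, in which 75 of 171 were called higher and 0 lower. No transcript of the X1-enriched set was lower in PIWI-1 high at an unadjusted p under 0.05 or with voom. With the sort number as a block, which pairs the libraries of one sort, 22 members were called higher and 10 lower. Of all 15896 tested transcripts, 577 were then higher and 2051 lower. With median-ratio scaling 32 of 135 members were higher and 10 lower, and of all 16155 tested transcripts 765 and 1756. The count of 10 fell to 4 without PIWI-1 high library 1 or 2 or without PIWI-1 low library 3 or 4, to 5 without PIWI-1 high library 4 or PIWI-1 low library 1, and to 6 without PIWI-1 negative library 4, and was 16 without PIWI-1 negative library 3.

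The 2 members named for being higher in PIWI-1 high than low were SMED30020974, given above, and SMED30033538. For SMED30020974 the log2 difference between PIWI-1 high and low was 1.76 ± 0.37 (SE; limma adjusted p = 0.00707). SMED30033538 had 24.2, 25.6, 15.9 and 19.2 FPKM in PIWI-1 high, 5.14, 8.39, 4.64 and 4.64 FPKM in PIWI-1 low and 0.544, 2.10, 0.244 and 0.430 FPKM in PIWI-1 negative cells. Its libraries followed those of SMED30020974 closely, the 2 transcripts are of like length (4567 and 4540 bases), and whether they share reads could not be assessed. The log2 difference of SMED30033538 between PIWI-1 high and low was 1.74 ± 0.37 (SE; limma adjusted p = 0.0075).

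The 8 members called lower in PIWI-1 high than low were all also called higher in PIWI-1 low than negative, so that they peaked in PIWI-1 low cells. Such a low peak was found for 1.13% of all tested transcripts. These 8 were median 44.5 FPKM in PIWI-1 high, 300 FPKM in PIWI-1 low and 11.6 FPKM in PIWI-1 negative cells. SMED30014876 had 1198, 2236, 1002 and 2069 FPKM in PIWI-1 high, 11562, 9176, 7668 and 12428 FPKM in PIWI-1 low and 293, 726, 92.8 and 456 FPKM in PIWI-1 negative cells. Every PIWI-1 low library was more than any PIWI-1 high library, and every PIWI-1 high library more than any negative one. Its log2 difference was 5.02 ± 0.54 between PIWI-1 low and negative (SE; limma adjusted p = 1.81e-05) and -2.71 between PIWI-1 high and low (limma adjusted p = 0.00508).

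SMED30025741 had 572, 1148, 441 and 891 FPKM in PIWI-1 high, 5099, 4313, 3313 and 5401 FPKM in PIWI-1 low and 121, 310, 43.4 and 194 FPKM in PIWI-1 negative cells. Its libraries had the same order within each population as those of SMED30014876. Its log2 difference between PIWI-1 low and negative was 5.05 ± 0.53 (SE; limma adjusted p = 1.51e-05), the largest of any member.

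The 2 members furthest below PIWI-1 low in PIWI-1 high cells were SMED30008921 and SMED30026763. SMED30008921 had 48.6, 84.1, 39.3 and 67.2 FPKM in PIWI-1 high, 494, 344, 340 and 464 FPKM in PIWI-1 low and 10.9, 27.8, 2.504 and 21.2 FPKM in PIWI-1 negative cells. It was highest in PIWI-1 low cells in every sort, and its log2 difference between PIWI-1 high and low was -2.80 (limma adjusted p = 0.00394). SMED30026763 had 4.73, 8.58, 5.95 and 9.10 FPKM in PIWI-1 high, 52.0, 41.5, 47.98 and 68.1 FPKM in PIWI-1 low and 2.33, 4.11, 0.513 and 3.42 FPKM in PIWI-1 negative cells. Its difference was -2.74 (limma adjusted p = 0.000847), and its PIWI-1 high and negative libraries did not overlap.

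**Figure D4:**
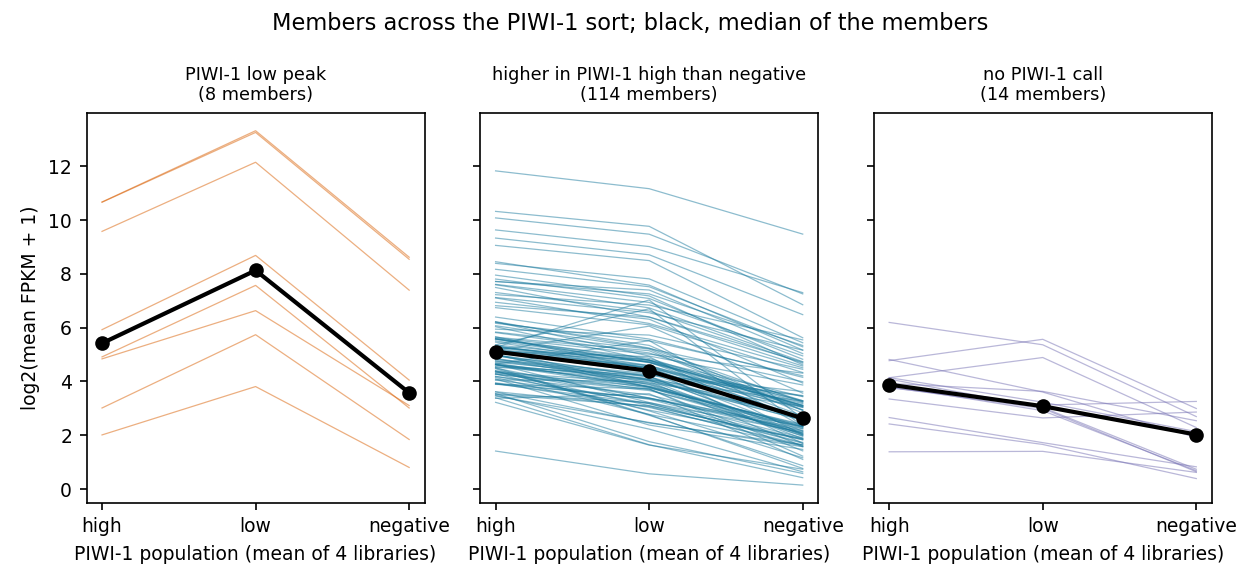
Mean levels, as log2(mean FPKM + 1), of each tested member in PIWI-1 high, low and negative cells (4 libraries each), for the 8 members that peaked in PIWI-1 low cells, the 114 others called higher in PIWI-1 high than negative, and the 14 with no call between these. Thin lines are members and the black line is their median. The median peaks in PIWI-1 low cells in the first panel and descends from PIWI-1 high to negative in the other two. For the 14, the second sort held the highest PIWI-1 high library in each, and some of their means lean on it.

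The 8 low-peak members shared other values that the PIWI-1 calls did not use, given as a description since the rule used them. Their L(irradiated, untreated) ran from -2.55 to -1.27, with a median of -2.18, against -0.95 for the 114 members that were called higher in PIWI-1 high than negative without a low peak. Their L(X1, Xins) had a median of -7.65, against 0.56. They were median 6.88 FPKM in X1, 320 FPKM in X2 and 488 FPKM in Xins. Of the 13 members with an L(X1, Xins) below -1, 8 were these; X2 was the highest population for 2 of them and Xins for 6. Among the 114, X1 was highest for 90, X2 for 17 and Xins for 7.

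All but 1 of the low-peak transcripts were between 506 and 737 bases long, and SMED30031307 was 2169 bases, longer than the median member. SMED30031307 is named here after its values were seen. The 8 had a median length of 604 bases (quartiles 573 and 646), against 1739 (quartiles 1060 and 2321) for all members, 1041 for the X1-enriched set and 1298 for all 16124 transcripts. Lengths were recovered from the FPKM steps and so were those that the authors divided by. SMED30014876 was 737 bases, SMED30002134 616, SMED30026763 603, SMED30025741 592 and SMED30008921 506. Of the 51 transcripts left out for their course in regeneration, 11 also had an L(X1, Xins) below -1 and 6 had a low peak, so the rule parted transcripts of this pattern.

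A further 8 members had their highest mean in PIWI-1 low cells without a call against PIWI-1 high, 5 of them called higher in PIWI-1 high than negative and 3 not. SMED30008505, the member with the lowest ratio after irradiation, was one of the 5. It had 42.5, 70.7, 21.2 and 26.3 FPKM in PIWI-1 high, 132, 189, 35.1 and 56.5 FPKM in PIWI-1 low and 2.09, 10.97, 0.558 and 2.63 FPKM in PIWI-1 negative cells. PIWI-1 low was above PIWI-1 high in each sort, but the libraries of these populations overlapped, and the log2 difference between PIWI-1 high and low was -1.20 ± 0.63 (SE; limma adjusted p = 0.308). With the sort number as a block the same difference was called (limma adjusted p = 0.00308). Against PIWI-1 negative it was called higher in both other populations, by 3.29 in PIWI-1 high (limma adjusted p = 0.000453) and 4.48 in PIWI-1 low (limma adjusted p = 0.000108).

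SMED30012332, high in X2, was another of the 5. It had 42.4, 76.5, 16.0 and 15.5 FPKM in PIWI-1 high, 186, 245, 34.1 and 53.8 FPKM in PIWI-1 low and 3.23, 13.5, 0.868 and 2.96 FPKM in PIWI-1 negative cells. Sorts 1 and 2 were higher than sorts 3 and 4 in each population. Its log2 difference between PIWI-1 high and low was -1.64 ± 0.72 (SE; limma adjusted p = 0.199), and with the sort number as a block it was called (limma adjusted p = 0.000529). These were the 2 members that the block added to the 8 with a low peak.

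No call between PIWI-1 high and negative was made for 14 members, all with a log2 difference above 0. SMED30007927, the member with the largest excess in X2 and 1 of the 3 above, had 25.3, 59.7, 9.17 and 11.3 FPKM in PIWI-1 high, 49.5, 103, 13.9 and 19.3 FPKM in PIWI-1 low and 5.43, 15.9, 1.73 and 4.84 FPKM in PIWI-1 negative cells. The populations kept their order within each sort but overlapped between sorts. Its log2 difference was 1.71 ± 0.70 between PIWI-1 high and negative (SE; limma adjusted p = 0.0533) and 2.46 ± 0.70 between PIWI-1 low and negative (SE; limma adjusted p = 0.0126), the second of which was called. With the sort number as a block the first was called as well (limma adjusted p = 6.78e-06), and so it was without PIWI-1 high library 3 or 4, PIWI-1 low library 2 or 3, or PIWI-1 negative library 2, with adjusted p from 0.0149 to 0.0465. The second sort held the highest PIWI-1 high library for 14 of these 14 members, against 71.6% of all tested transcripts. Some means leaned on that library: SMED30017928 ran from 0.193 to 53.1 FPKM in PIWI-1 high, with a mean of 16.0. Others spread less, such as SMED30005445, from 6.13 to 15.7 FPKM in PIWI-1 high. Both are named here after their values were seen. With the sort number as a block, 133 of the 136 members were called higher in PIWI-1 high than negative, and 3474 of all 15896 tested transcripts.

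The rule held every member to an absolute L below 1 during regeneration, so its course within that limit is described and not tested. The members' median L against 0 hr was above 0 at all 16 later times, at 0.41 at 36 hr and highest, 0.45, at 72 hr. Over the 12390 steady transcripts with an untreated mean of at least 2 FPKM it was 0.09 and 0.17 at these times. The steady transcripts' median was also above 0 at every later time but 6 hr, where it was -0.09. The medians were closer late, at 0.30 for members and 0.26 for steady transcripts at 10 days, and 0.24 and 0.22 at 14 days. Among the later times the highest mean was at 72 hr for 38 members, and the lowest at 6 hr for 59. These times were not counted over the steady transcripts, whose median was also lowest at 6 hr. The larger move was upward for 112 members and downward for 26. Of the 12390 steady transcripts it was upward for 7846 and downward for 4544.

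SMED30017448 came nearest to the upper limit. It had 10.2, 9.82, 11.4 and 8.31 FPKM at 0 hr and 22.9, 17.2, 18.7 and 23.6 FPKM at 36 hr, an L of 0.98. All 4 libraries at 36 hr lay above all 4 at 0 hr, at a time picked for the size of its rise. How many other transcripts did so was not counted. SMED30015533 was next, with an L of 0.97 at 72 hr. It averaged 66.3 ± 26.4 FPKM in PIWI-1 high, 36.4 ± 14.1 FPKM in PIWI-1 low and 14.9 ± 8.46 FPKM in PIWI-1 negative cells (SD, n = 4 each).

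The low-peak members took another course. The larger move was downward for 8 of 8, and 7 of 8 had their lowest mean at 7 days, with a median L of -0.63 at 4 days and -0.77 at 7 days. The course was not smooth: the median was -0.52 at 60 hr, -0.09 at 72 hr and -0.39 at 5 days. At 10 days the median was -0.06 and at 14 days -0.08. With median-ratio scaling, 5 of the 8 no longer met the regeneration limit. SMED30014876 had 1063, 936, 1173 and 624 FPKM at 0 hr, 671, 613, 438 and 305 FPKM at 7 days and 924, 867, 791 and 746 FPKM at 14 days. The libraries at 0 hr and 7 days overlapped in range, its L at 7 days was -0.90, and the values at 14 days lay within the range at 0 hr. Over the same times the median of the 114 members without a low peak stayed above 0, at 0.33 at 7 days.

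The lowest L of members with at least 5 FPKM was found for SMED30029652, -0.96 at 24 hr, a member without a low peak. It averaged 287 ± 48.1 FPKM in PIWI-1 high, 183 ± 34.1 FPKM in PIWI-1 low and 38.1 ± 18.8 FPKM in PIWI-1 negative cells (SD, n = 4 each), and its log2 difference between PIWI-1 high and negative was 3.06 ± 0.43 (SE; limma adjusted p = 2.89e-05). In whole worms it averaged 30.1 ± 1.29 FPKM after irradiation and 56.0 ± 1.45 FPKM untreated (SD, n = 3 each), an L of -0.87.

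**Figure D5:**
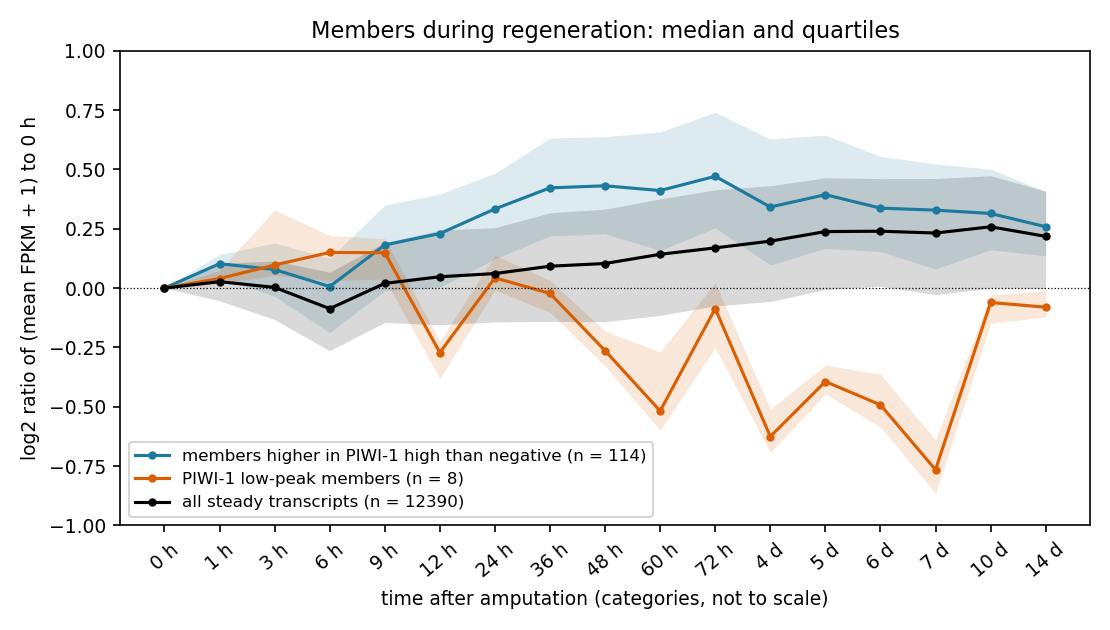
Median L against 0 hr (line) with quartiles (shading) at 16 later times of regeneration for the 114 members called higher in PIWI-1 high than negative without a low peak, the 8 low-peak members and the 12390 steady transcripts; times are evenly spaced categories. The median of the 114 members lies above that of the steady transcripts at all 16 times, with 0.47 at 72 hr. The low-peak median moves down and up, with -0.52 at 60 hr, -0.09 at 72 hr and -0.63 at 4 days. It is lowest, -0.77, at 7 days, and is -0.06 at 10 days and -0.08 at 14 days.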

How the data were processed

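PolyA RNA was sequenced in 96 libraries. The authors deposited 3 tables of FPKM, per the labels' file descriptions, each with 36035 transcripts. The submitters' processing notes name Bowtie2 2.2.9 and edgeR without a role; the reference build and the counting method are not given in the sources used here. FPKM are relative to all reads of a library, so a transcript that takes a large share lowers all others. Library totals and transcript lengths were recovered as the integers that turn FPKM into whole reads for at least 99.988% of values in each library. Whole meant within 0.05 of a read. In the PIWI-1 libraries this tolerance was widened by an amount that grew with length, library total and reads. A length was received by 35307 transcripts, with all 138 members. Tests used limma 3.58.1 in R 4.3.3 on log2(FPKM + 1) with a mean-variance trend, fitted to the 12 PIWI-1 libraries together. They were also run on simulated data. Those data were drawn without a shared deviation by sort number, so that check does not cover it. Alternatives were a pseudocount of 0.1, median-ratio scaling, no filter, no minimum difference, the sort number as a block, leaving out libraries, and voom on recovered reads. Python 3.11.15 with pandas 2.3.3 computed the summaries.

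The members and lists were chosen with earlier results of these data known. Irradiated against untreated, X1 against Xins and each time against 0 hr chose the members and were not tested. At most 2 members per comparison and direction are named, by the size of the difference, with at least 5 FPKM in the higher group. In the PIWI-1 comparisons they also had to be called and without overlap between libraries. For irradiation only the lack of overlap was required, and for the X sort and the regeneration series neither was. The 2 highest in untreated worms are named as well, and SMED30018240 and SMED30004496 as the members not tested. Libraries with the same sort number deviated together from their group means: the 12 same-number pairs had correlations from 0.122 to 0.797, so the numbers were taken to pair them, from the data and not the labels.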

Additional observations from a re-analysis of the deposited data

Results flagged for a closer look

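In 2 of 39 groups tested for a library far from the others (13 named members in each of 3 PIWI-1 populations of 4 libraries), the gap of one library was beyond Dixon's critical value, a limit that chance passes in about 1 in 20 groups. Both concerned SMED30033538: the second library had 8.39 FPKM in PIWI-1 low cells, where the other libraries had 5.14, 4.64 and 4.64, and 2.10 FPKM in PIWI-1 negative cells, where the others had 0.544, 0.244 and 0.430. Both libraries belong to the second sort, which detected more transcripts than the other sorts; its part in these values was not tested.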

How the results depend on the processing

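The number of members, 138, became 14 with median-ratio scaling, 65 with an L(irradiated, untreated) of at most -1 and 27 with an L(X1, Xins) below 0, and ranged from 123 to 236 when 1 library was left out, with 236 without irradiated library 1. With median-ratio scaling 69 members failed the irradiation condition, 106 the X1 condition, 16 the untreated minimum and 8 the regeneration condition, some of them several. Of the 8 low-peak members, 5 failed the regeneration condition and no other, 2 failed the untreated minimum, and 1 was kept. Members called higher in PIWI-1 high than low, 10, became 22 with the replicate block, 32 with median-ratio scaling, 6 with no filter, 41 with voom on recovered reads with median-ratio scaling and 11 with voom on library totals (both added after seeing the data), and 4 to 16 with 1 library left out. Of all tested transcripts, 380 were called higher in PIWI-1 high than low. This became 577 with the replicate block, 765 with median-ratio scaling and 295 with no filter. It became 1134 with voom and median-ratio scaling, 391 with voom on library totals, and 189 to 478 with 1 library left out. The cause of these changes was not tested. Calls against PIWI-1 negative stayed within 1.5 times in all alternatives run: with 1 library left out, 116 to 129 members were higher in PIWI-1 high and 85 to 109 in PIWI-1 low. Of all tested transcripts, 2482 to 3681 were then higher in PIWI-1 high and 1525 to 2724 in PIWI-1 low. Without the second sort, 124 of 129 members were higher in PIWI-1 high and 109 in PIWI-1 low, and of all 13228 tested transcripts 3314 and 2409. The 8 low-peak members were called as such in every alternative of the PIWI-1 fit, among 8 to 10 members. For the 13 named members in 3 comparisons, 745 values under alternatives kept direction and call, 24 gained a call, 11 lost one and 0 changed direction. The replicate block added 4 of these calls, given beside the results, and removed 0. Depth limits the lowest members, with as few as 30 reads in an untreated library.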

Other observations

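One library of whole-animal RNA, which the labels place in no group, was deposited beside the PIWI-1 sorts. It held 33.9 M reads, of which a single transcript took 8.81%. The members' median in it was 10.7 FPKM, and that of the 8 low-peak members 33.3 FPKM. It lay above the PIWI-1 negative mean for 127 of the 138 members and above the PIWI-1 high mean for 6. Over all 16124 transcripts with an untreated mean of at least 2 FPKM, these counts were 12976 and 12180. SMED30014876 had 1290 FPKM and SMED30008505 24.1 FPKM in this library.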
